A study of Mus musculus with 4 samples.

Results

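The genes described here are the mouse zinc finger protein genes named Zfp followed only by a number, measured on arrays of Hepa1c1c7 cells. A gene was included if its probe carried a RefSeq transcript accession of such a symbol and was well above background on all 4 arrays, and the brightest such probe stood for the gene. These conditions chose 233 genes of 300 with a probe on the array, and the whole fit held 15537 genes. Of these, 10953 had a symbol. The other 4584 were array entries without one, each counted as a gene, so some genes may be counted more than once. Members were thus chosen by the measured signal and its background flag on all 4 arrays, so neither is a finding. The difference between the groups was not used directly, but a gene at background in either group was left out. Hepa1c1c7 is a mouse hepatoma cell line. In 2 samples the cells had received 100 µM diethyl maleate (DEM), an electrophile that depletes glutathione and is named in the series title as an activator of NRF2, for 6 hours, and in 2 samples the solvent dimethyl sulfoxide (DMSO) for 6 hours. The labels name this 1 line for every sample and no genetic change, although their extraction text speaks of liver tissue, a conflict that was not settled here. They do not say whether the RNA samples of a group came from separate cultures, so p-values measure only the spread between these samples.

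Most genes with a numbered Zfp symbol encode proteins with tandem C2H2 fingers, each a small fold around a zinc ion that reads a few bases of DNA. Many carry a KRAB domain, which recruits the corepressor TRIM28 and, through it, enzymes that build heterochromatin over retroelements and imprinted sites. Others are activators, RNA-binding proteins or ubiquitin ligases. Transcripts of KRAB zinc finger genes are commonly short-lived in mammalian cells, so the family is one place to look for a general loss of unstable transcripts, the question put here. Half-lives were not measured on these arrays.

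Each array had 20744 to 21659 of 41174 probes well above background and 0 saturated spots. Of the 10 hepatocyte and hepatoma markers listed, 4 were well above background on all 4 arrays, among them Alb and Afp, while Hnf4a, Apoa1, Ttr and Fgb were so on none. All 5 endothelial markers were well above background on none. Of 6 fibroblast markers 4, and of 6 macrophage and leukocyte markers 2, were well above background on all 4 arrays, and their part in the results was not tested. None of these marker lists held a called gene in the limma fit. At an unadjusted p under 0.05, 3 of 5 tested hepatocyte markers were higher, as were 9.02% of all genes. The median log2 change of that list was 0.29 and its largest 3.45. At the same level 1 of 2 macrophage and 1 of 4 fibroblast markers were lower, as were 10.2% of all genes. Signals are given below in intensity units after each array was scaled on its 75th percentile, and changes as log2 of DEM over DMSO, with the standard error (SE) of the fit.

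The family as a whole was centred near no change, and 1 member, Zfp418, rose past the threshold. Its median log2 change was −0.02, against −0.01 for the 15304 other genes tested and −0.00 for the 14343 other genes well above background on all 4 arrays. The sign of the family's median turned with the scaling: it was 0.13 under scaling on the median of each array, where the other genes' median was 0.14, and −0.08 under spike-in scaling, where theirs was −0.07. The difference between the 2 medians, which a change of scaling factor cannot move, was −0.01, less than its spread of 0.05 between replicate arrays (pooled SD). In all, 111 members had a positive change and 122 (52.4%) a negative one, as did 51.2% of all genes tested and 50.3% of those well above background on all 4 arrays. The labels give 500 ng of RNA for every sample, so neither fewer cells nor less RNA per cell would show in these values.

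**Figure D1:**
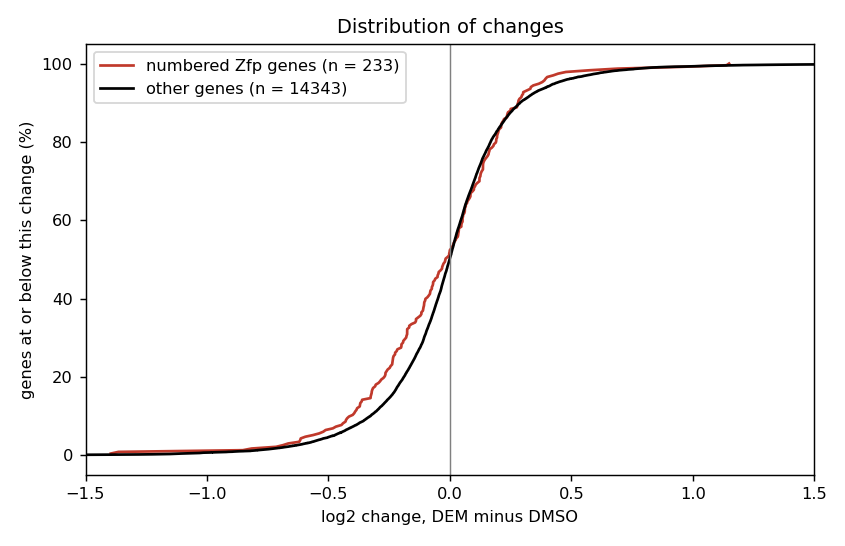
Cumulative distribution of the log2 change (x axis, DEM minus DMSO) over the 233 numbered Zfp genes (red) and the 14343 other genes well above background on all 4 arrays (black), with the percent of genes at or below each change on the y axis. Both curves cross 0 near their middle, and the red curve lies to the left over small falls, with the lower quartile of members at −0.23 and that of other genes at −0.14.

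At a limma adjusted p under 0.05 (Benjamini-Hochberg over all genes tested) 1 member was higher in DEM and 0 were lower, where 0.714% of all genes tested were called higher and 0.508% lower (0.604% and 0.418% of the 14576 well above background on all 4 arrays). The calls lay close to the threshold. With a mean-variance trend and robust moderation 5 members were called higher and 9 lower, among 492 and 390 of all genes. Leaving out any 1 array, which leaves 1 array in its group, lowered the number of calls over all genes. At an unadjusted p under 0.05, 19 members (8.15%) were higher and 44 (18.9%) were lower, where 9.02% of all genes were higher and 10.2% lower (8.89% and 9.21% of those above background on all 4). The excess on the lower side moved with the scaling and with single arrays. It was present under quantile normalization (18.5% of members, 9.44% of all genes), normexp (20.6% and 12.2%), no filter on dim probes (12.9% and 5.94%), an eBayes trend (15.9% and 10.03%) and the replicate block (22.7% and 15.1%). With 1 array left out, 8.58% to 12.02% of members were lower, as were 7.27% to 8.69% of all genes. Under spike-in scaling 16 members (6.87%) were lower at that level, as were 6.88% of all genes, and under median scaling 12 (5.15%), as were 4.92% of all genes. Values of the 2 DEM arrays lay wholly above those of the 2 DMSO arrays for 60 members (25.8%) and wholly below for 77 (33.0%), where 24.9% and 25.6% of all genes did so.

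Changes were small. Of the members, 213 (91.4%) lay within 0.5 of no change on the log2 scale, as did 91.5% of the other genes well above background on all 4 arrays. Beyond 0.5, 5 members were higher and 15 lower, where 4.60% of all genes tested (2.15% of members) were past it upward and 6.38% (6.44% of members) downward. Among genes well above background on all 4 arrays these were 3.79% and 4.66%. The median size of change was 0.19 among members and 0.14 among those other genes. Replicate arrays differed by a median of 0.13 for members between the DEM arrays and 0.12 between the DMSO arrays.

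Zfp36 encodes tristetraprolin, a CCCH protein that binds AU-rich elements in messenger RNAs and recruits the deadenylase that starts their decay, and it had the largest positive change of the family. Its signal was 297 and 408 in DEM arrays, against 145 and 169 in DMSO arrays. Both DEM values lay above both DMSO values. The log2 change was 1.15 ± 0.19 (SE, n = 2 arrays per group), 2.22-fold, and it did not pass the threshold (limma adjusted p = 0.0808). It passed under 6 alternatives, with the lowest limma adjusted p at 0.00393 under spike-in scaling. That scaling also called Zfp113 (limma adjusted p = 2.2e-05), whose DMSO arrays differed widely. A low p there does not show that replicates agreed. The 250 bases before its RefSeq start are shown because it is an immediate early gene in growth factor-treated cells, with a match to the CArG box, the site of serum response factor, in capitals (GRCm38.p6, chr7:28379229-28379478, minus strand).

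Zfp36: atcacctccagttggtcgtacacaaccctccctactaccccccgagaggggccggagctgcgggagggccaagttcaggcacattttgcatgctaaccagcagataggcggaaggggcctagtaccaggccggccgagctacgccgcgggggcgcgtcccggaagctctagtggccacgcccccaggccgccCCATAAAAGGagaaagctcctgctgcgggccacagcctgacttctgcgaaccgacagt

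The match spans positions −58 to −49 before the start. A CArG box occurred in 1.05% of the 191 members with a promoter in the RefSeq table and in 1.40% of all 27025 promoters of this length, with Zfp644 (log2 change −0.14 ± 0.18) the other member that held one. The relatives of Zfp36 whose symbols carry letters are not members. Zfp36l1 had −1.07 ± 0.13 on the log2 scale (adjusted p = 0.0534, limma), and Zfp36l2 had 0.80 ± 0.09 (adjusted p = 0.0529, limma). The 3 genes, all of AU-rich element binding, did not share a sign.

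The other members listed for RNA binding, decay and translation had small changes. Zfp598, a ubiquitin ligase that senses collided ribosomes, had a log2 change of 0.05 ± 0.08, and its signal was 7134 and 7026 in DEM arrays, against 6934 and 6777 in DMSO arrays. Zfp622, related to a factor of large ribosomal subunit maturation in yeast, had −0.01 ± 0.09, and Zfp207, a kinetochore and splicing protein, −0.00 ± 0.12. Zfp106, which binds RNA in neurons and muscle, had 0.03 ± 0.09, and Zfp346, which binds double-stranded RNA, −0.07 ± 0.09. Zfp638, an RNA-binding protein that takes part in retroelement silencing, had 0.14 ± 0.25, with 239 and 375 in DEM arrays, against 252 and 294 in DMSO arrays. Zfp326, which links splicing to transcript elongation, had −0.19 ± 0.10. Of these 8 genes 0 were called, 4 had a positive and 4 a negative change, and the median was 0.01. As 0.714% of all genes were called higher and 0.508% lower, 0 calls tell little in a list this short, here and below.

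The 4 members listed for imprint and retroelement silencing all lay on the negative side without passing the test. Zfp638, listed above for RNA binding, also takes part in retroelement silencing and had a positive change (0.14 ± 0.25). Zfp445, which keeps methylation at imprinted loci, had 80.1 and 86.4 units in DEM arrays, against 97.6 and 98.04 in DMSO arrays (−0.23 ± 0.09 on the log2 scale, limma adjusted p = 0.272). Zfp809, which silences retroviruses that use a proline transfer RNA primer, had 343 and 396 in DEM arrays, against 412 and 458 in DMSO arrays, a log2 change of −0.24 ± 0.12. The groups did not overlap for either gene. Zfp57, the other imprint keeper, had −0.03 ± 0.09, and Zfp708, which acts on a long terminal repeat element in the germ line, −0.11 ± 0.17, with groups that overlapped. The median of these 4 genes was −0.17, and Zfp57 and Zfp708 turned positive under median scaling.

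Of the 10 sequence-specific transcription factors listed and measured, 6 had a positive and 4 a negative change and 0 were called. Zfp143, which occupies promoters of protein-coding and small nuclear RNA genes, had 744 and 723 in DEM arrays, against 594 and 619 in DMSO arrays (log2 change 0.28 ± 0.09, limma adjusted p = 0.206). Zfp217, an oncogene product that works with corepressors, had 162 and 159 in DEM arrays, against 194 and 208 in DMSO arrays (−0.33 ± 0.09, limma adjusted p = 0.171). These were the extremes of the group, and neither overlapped. Zfp516, a brown fat activator, had 0.25 ± 0.11. Zfp219, a partner of SOX9, had 0.24 ± 0.08, Zfp384 had 0.20 ± 0.10, and Zfp410, which activates the chromatin remodeller gene Chd4, had 0.14 ± 0.08. Zfp335, a regulator of neural progenitors, had 0.13 ± 0.09. Zfp263 had −0.04 ± 0.09, the pluripotency regulator Zfp281 had −0.10 ± 0.12, and Zfp148, a GC-box binding factor, had −0.22 ± 0.17.

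Of the 4 members listed for ubiquitin, SUMO and signalling, 3 had a positive change and 0 were called. Zfp668, linked to DNA repair, had 1694 and 1797 in DEM arrays, against 1484 and 1477 in DMSO arrays (log2 change 0.24 ± 0.09, limma adjusted p = 0.255). Zfp451, a SUMO ligase, had 0.22 ± 0.14, and Zfp91, a ubiquitin ligase of the noncanonical NF-kB pathway, 0.13 ± 0.15. Zfp395 had −0.03 ± 0.12.

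**Figure D2:**
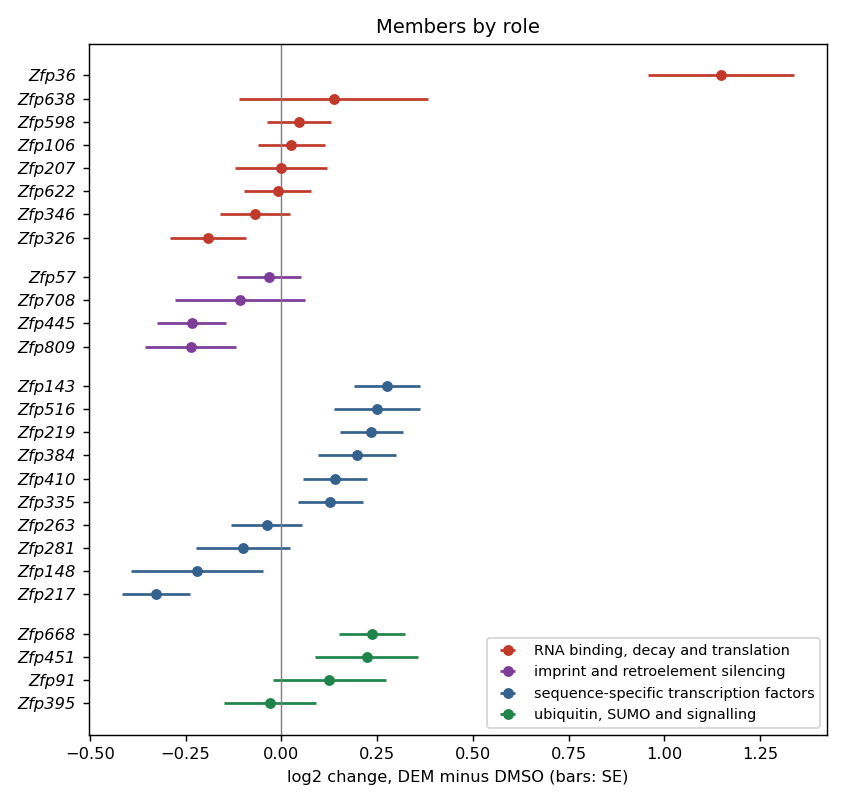
Log2 change (x axis, DEM minus DMSO) with its SE for the 26 members on the 4 role lists, coloured by list. Zfp36 stands alone at 1.15, and the 4 genes listed for imprint and retroelement silencing lie below 0. Every other gene lies between −0.33 and 0.28.

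Zfp418, a C2H2 gene, was the member that passed the threshold. Its signal was 217 and 198 in DEM arrays, against 98.1 and 90.2 in DMSO arrays, and the groups lay far apart relative to their own spread. It rose 2.20-fold, a log2 change of 1.14 ± 0.10 (limma adjusted p = 0.0384). It was called under 11 of 16 alternatives. Of these, the value table of the series could only repeat the main fit. As the gene has 1 probe, the settings on probe choice returned the same log2 change. It lost the call without a filter on dim probes (limma adjusted p = 0.209), where 0 of all genes were called in either direction. It also lost the call when any 1 array was left out, where calls over all genes fell too. The log2 change of Zfp418 stayed at 1.07 or above on leaving out any 1 array. Its promoter is shown as that of the called member, with matches to the TATA box (TATAAA) and the CCAAT box (CCAAT) on either strand in capitals (GRCm38.p6, chr7:7171103-7171352, plus strand).

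Zfp418: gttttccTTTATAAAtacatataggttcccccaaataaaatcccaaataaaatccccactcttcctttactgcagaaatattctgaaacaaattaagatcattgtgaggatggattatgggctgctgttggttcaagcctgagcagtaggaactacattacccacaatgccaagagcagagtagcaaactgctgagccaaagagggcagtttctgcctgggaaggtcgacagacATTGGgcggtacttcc

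The TATA box letters lay far upstream, at −243 to −236 where a match on each strand overlapped, and the CCAAT letters at −16 to −12 on the opposite strand. No antioxidant response element core (TGACNNNGC, the site of NRF2 with small MAF proteins) was among the letters of this window. The genes next to Zfp418 in the RefSeq order did not pass the test. Zfp773 on one side had a log2 change of −0.23 ± 0.20 and Zfp772 on the other 0.11 ± 0.10.

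Among the other large positive changes, Zfp61 had 312 and 362 in DEM arrays, against 186 and 164 in DMSO arrays (1.92-fold, log2 change 0.94 ± 0.13, limma adjusted p = 0.0603). A second, dimmer probe of Zfp61 gave 0.67 ± 0.11. Zfp438 had 36.7 and 36.8 in DEM arrays, against 20.8 and 24.9 in DMSO arrays (0.69 ± 0.12). Zfp790 had 68.1 and 69.0 in DEM arrays, against 48.8 and 49.7 in DMSO arrays (0.48 ± 0.08). For these 3 genes the 2 groups were clearly separated.

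Zfp677 had 0.57 ± 0.25, Zfp579 0.45 ± 0.10, Zfp704, a glucocorticoid-induced gene, 0.43 ± 0.17, Zfp276 0.40 ± 0.11 and Zfp78 0.39 ± 0.11. These 10 genes were picked for the size of their change, which largely fixes that their groups were separate, as they were in all 10.

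The most negative change was that of Zfp467, a factor that steers marrow stromal cells towards fat. Its signal was 24.1 and 16.8 in DEM arrays, against 55.4 and 50.5 in DMSO arrays (2.63-fold lower, log2 change −1.40 ± 0.20, limma adjusted p = 0.0675). Its groups were well separated, at signals among the dimmest of the family, and it was called under 7 alternatives, 1 of them without DEM replicate 1. After normexp, whose offset shrinks changes of dim probes by construction, the change was −0.56. Its promoter is shown as that of the largest fall (GRCm38.p6, chr6:48445091-48445340, minus strand), with no capitals because none of the 5 motifs searched was found.

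Zfp467: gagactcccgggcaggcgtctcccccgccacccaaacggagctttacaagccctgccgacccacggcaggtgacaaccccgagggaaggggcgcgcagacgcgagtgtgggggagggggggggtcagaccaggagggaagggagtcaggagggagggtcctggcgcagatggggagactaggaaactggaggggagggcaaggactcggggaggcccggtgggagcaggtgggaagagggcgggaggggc

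Zfp937 had 70.3 and 88.9 in DEM arrays, against 131 and 155 in DMSO arrays (log2 change −0.85 ± 0.16), and Zfp810 had 17.9 and 15.5 in DEM arrays, against 27.7 and 31.0 in DMSO arrays (−0.82 ± 0.12). Zfp202, whose human counterpart represses genes of lipid metabolism, had 108 and 100.2 in DEM arrays, against 170 and 165 in DMSO arrays (−0.69 ± 0.09, limma adjusted p = 0.0603). Groups were separated in these 3 genes. Zfp949 had −0.72 ± 0.11, Zfp398, whose human counterpart binds the oestrogen receptor, −0.62 ± 0.10, and Zfp606 −0.61 ± 0.09.

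The remaining 3 of the 10 largest negative changes rested on uneven control arrays. Zfp113 had 25.7 and 25.7 in DEM arrays, against 26.6 and 164 in DMSO arrays, and its log2 change of −1.36 ± 0.89 became −0.05 without DMSO replicate 2. Zfp94 had 60.02 and 43.4 in DEM arrays, against 56.4 and 108 in DMSO arrays, with groups that overlapped, and its change of −0.62 became −0.14 without DMSO replicate 2. Zfp870 had 102 and 88.8 in DEM arrays, against 191 and 119 in DMSO arrays, and its change of −0.67 became −0.32 without DMSO replicate 1. The limma adjusted p of the 10 genes lay between 0.0603 and 0.488 in the main fit. Spike-in scaling called Zfp113 lower despite its uneven DMSO arrays (limma adjusted p = 2.2e-05).

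**Figure D3:**
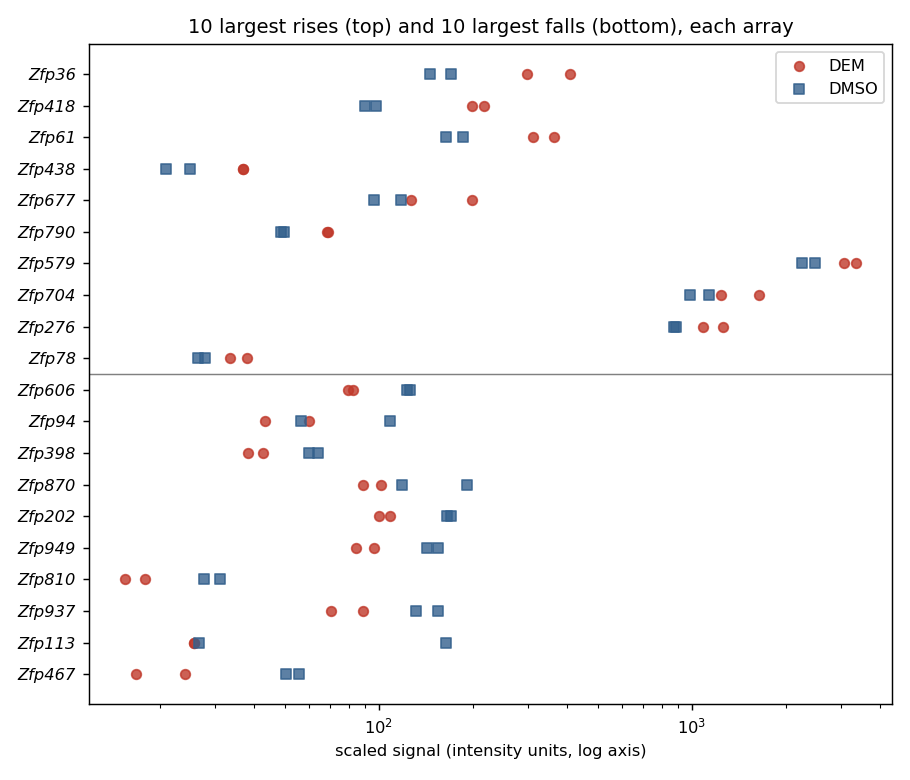
Scaled signal on each array (x axis, intensity units, log axis) for the 10 members with the largest positive changes (upper rows) and the 10 with the largest negative changes (lower rows), with DEM arrays as red circles and DMSO arrays as blue squares. The groups are separate in all 10 upper rows and in 9 of the lower ones, and the single high DMSO value of Zfp113 lies at 164.

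Member changes varied over the range of signal. All 15537 genes were divided into 4 bins of equal size by their mean over the 4 arrays, and bins 1 to 4, from dim to bright, held 52, 92, 59 and 30 members. Member medians were −0.08, −0.11, 0.06 and 0.07 from bin 1 to bin 4, and those of other genes −0.13, −0.01, 0.02 and 0.02. In bin 2, 62 of 92 members (67.4%) had a negative change, as did 51.9% of other genes there, and 25 members (27.2%) were lower at an unadjusted p under 0.05, as were 11.9% of other genes. In bin 4, 24 of 30 members had a positive change and 6 a negative one, where 44.0% of other genes were negative. These sign counts moved with the scaling: 47.8% of bin 2 members were negative under median scaling (29.6% of other genes there), and 46.7% of bin 4 members under spike-in scaling (64.3% of other genes) and 30% under quantile normalization (54.3%).

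The difference of medians in bin 2 was −0.10, and it ran from −0.14 to −0.06 over the alternatives. On single arrays, as deviations from each gene's mean, it was −0.06 and −0.02 in DEM arrays, against 0.02 and 0.07 in DMSO arrays, so both DEM arrays were below both DMSO arrays. In bin 4 the difference was 0.05 (0.04 to 0.09 over the alternatives), with 0.01 and 0.05 in DEM arrays, against −0.04 and −0.02 in DMSO arrays. In bins 1 and 3 the differences were 0.04 and 0.04, within their spreads of 0.06 and 0.06 between replicate arrays (pooled SD). The part of signal level itself in this pattern was not tested.

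**Figure D4:**
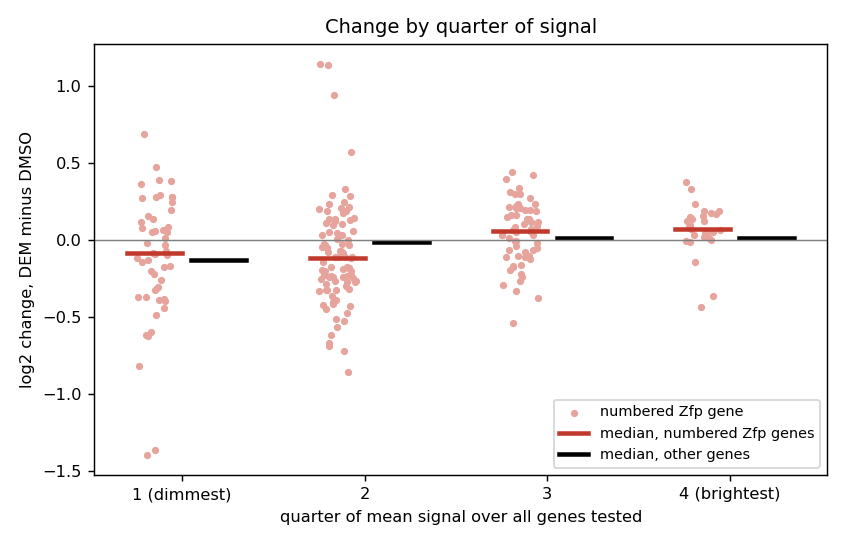
Log2 change (y axis, DEM minus DMSO) of each numbered Zfp gene (points, spread sideways at random for visibility) by bin of mean signal, 4 bins of equal size over all genes tested (x axis), with the median of members (red line) and of other genes (black line). The red line lies 0.10 below the black one in bin 2 and 0.05 above it in bin 4.

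A second probe gave a further reading of some members from the same RNA. For 87 genes 112 other probes were well above background on all 4 arrays, of which 64 (57.1%) had a negative change, with a median of −0.03. The sign matched that of the probe used for 88 of the 112, and for 18 of the 18 whose brightest probe had changed by more than 0.3. The correlation between probes was r = 0.67 over these 112 pairs, which share arrays and in part genes.

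**Figure D5:**
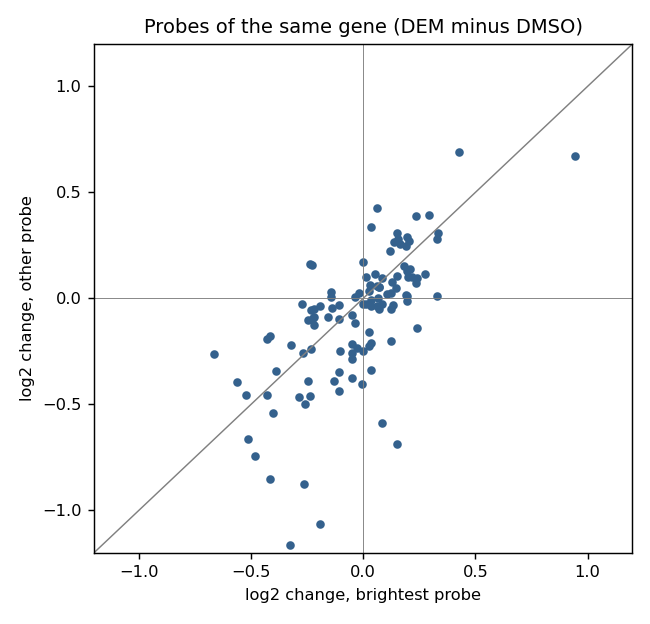
Log2 change (DEM minus DMSO) of the brightest probe of a gene (x axis) against that of another of its probes (y axis) for 112 probes of 87 genes, with the line of equality in grey. Points scatter about the line, with a median absolute difference of 0.15 between probes. The median size of change over all members was 0.19.

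Many numbered Zfp genes lie in clusters that arose by duplication. In the RefSeq order of protein-coding genes 96 members stood directly beside another member, in 34 runs of up to 7. Over the 62 neighbouring pairs the signs matched in 28, and the correlation of their changes was r = −0.06 (pairs share genes where a run holds more than 2). The longest run, from Zfp677 to Zfp983, had 6 positive changes of 7 (median 0.20, from −0.25 to 0.57). In the run that holds Zfp61 the other 3 genes were negative, Zfp108 at −0.27 ± 0.09, Zfp93 at −0.18 ± 0.18 and Zfp94 at −0.62 ± 0.37. Members beside another member had a median of 0.03 and the 137 others one of −0.04.

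Promoters were searched over the 250 bases before the RefSeq start (GRCm38.p6) on both strands. The antioxidant response element core was found in 22 of 191 members (11.5%) and in 12.1% of 8622 other genes tested (10.1% of all promoters). Members with it had a median change of 0.04 (12 positive, 10 negative), and members without it −0.03. An AP-1 site (TGAGTCA) stood in 6 members (3.14%), in 3.27% of other genes tested and in 4.43% of all promoters. All 6 members had a positive change on the probe used, from 0.03 ± 0.09 for Zfp672 to 0.48 ± 0.08 for Zfp790. That of Zfp329 was 0.04 ± 0.20. Other probes gave 0.34 for Zfp672, −0.21 and −0.34 for Zfp329, and 0.09 and −0.14 for Zfp871. Signs were not counted among other genes with the site. The CCAAT box was in 94 members (49.2%), against 36.7% of other genes tested and 34.5% of all promoters. Of those 94, 57 had a negative change (median −0.06), and members without it had a median of 0.03. Changes of other genes with and without the box were not compared. G and C made up a median of 54.8% of member promoters and 60% of those of other genes tested, and the part of this was not tested. TATAAA was in 11 members (5.76%), against 6.58% of other genes tested and 13.0% of all promoters. By their spelling, the antioxidant core can hold an AP-1 site on the opposite strand, and a CArG box can hold CCAAT or TATAAA.

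Among genes that work with KRAB zinc finger proteins, 19 of the 20 listed were tested and 0 were called, with a median of −0.12 (8 positive, 11 negative). Trim28, the corepressor itself, had 0.03 ± 0.09 and Setdb1, its histone methyltransferase, −0.18 ± 0.10. Chd4 and Chd3, remodellers of the NuRD complex, had −0.46 ± 0.08 (limma adjusted p = 0.0898) and −0.33 ± 0.08. Of 57 genes of the mRNA decay machinery 0 were called by limma. At an unadjusted p under 0.05, 3 were higher and 0 lower, where 9.02% and 10.2% of all genes were, and the median was 0.01.

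Of 48 Zbtb, Zkscan and Zscan genes 1 was called, Zscan21, which rose 1.86-fold (limma adjusted p = 0.0436), and the median was 0.01. Of 18 Zfp genes with letters after the number 0 were called. At that unadjusted level 2 of the 18 were higher and 3 lower, too few genes to set against those shares. Among the 18, 5 had a positive and 13 a negative change, with a median of −0.08. Of 47 immediate early and feedback genes, whose transcripts are known to turn over fast, 4 were called lower and 0 higher, where 0.508% and 0.714% of all genes were. Nfkbia, Tnfaip3 and Junb fell on probes well above background on all 4 arrays. Per2, the other call, was well above background on the 2 DMSO arrays alone and so entered the fit through the group where it was high. Neither direction held the list as a whole. At an unadjusted p under 0.05 in limma, 8 of the 47 were higher and 12 lower. Both counts were above the shares of all genes, 9.02% and 10.2%. Dusp1, a phosphatase of MAP kinases, had 0.81 ± 0.09 (adjusted p = 0.0529, limma). In all 20 had a positive and 27 a negative change, with a median of −0.06. As a contrast of long-lived transcripts, 72 cytosolic ribosomal protein genes had a median of −0.02 and 36 complex I subunit genes 0.01, with 0 called and 0 at an unadjusted p under 0.05 in either list. No list's median is a test, and none of these lists was shown to differ from the numbered Zfp genes.

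The filter on all 4 arrays left out 67 numbered Zfp genes. Of these, 46 were at background on every array. The other 21 were well above background on 1 to 3 arrays, through 6 and 7 probes in DEM arrays, against 10 and 14 in DMSO arrays. For 2 genes the probe was above background in both DMSO arrays and in neither DEM array, and for 1 in both DEM arrays and in neither DMSO array. Because the filter asks for signal in both groups, a gene below background in DEM was removed from the family.

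Of the 21 genes, 10 entered the fit through 2 or 3 arrays, and 0 of them were called by limma (4 at an unadjusted p under 0.05). Some of these, such as Zfp114 and Zfp316, passed through the DMSO arrays alone, so the direction of their changes is set in part by the filter. The dimmest members were Zfp979, with 18.2 and 19.4 in DEM arrays, against 19.8 and 19.6 in DMSO arrays, Zfp251, with 21.6 and 15.7 in DEM arrays, against 23.7 and 18.8 in DMSO arrays, and Zfp810. The brightest genes left out were Zfp558, with 17.4 and 13.0 in DEM arrays, against 43.3 and 16.8 in DMSO arrays, Zfp69, with 15.1 and 15.5 in DEM arrays, against 22.2 and 20.9 in DMSO arrays, and Zfp839, with 19.7 and 17.4 in DEM arrays, against 14.9 and 19.6 in DMSO arrays.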

How the data were processed

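RNA of 4 samples was hybridised in 1 colour. The deposited values are intensity readings which, per the file headers, Agilent Feature Extraction 10.7.3.1 (protocol GE1_107_Sep09, annotation mm9) made with its own background subtraction. All 4 arrays lay on 1 slide with 1 scan time. The deposited value table held the same processed signals at all 45018 spots of each array (column medians 13.8 to 16.2, linear, uncentred).

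From these, log2 of the processed signal minus the array's 75th percentile over 43379 non-control spots was taken, outlier spots were dropped and spots of a probe averaged. A gene entered if its brightest probe was well above background on at least 2 arrays. Symbols came from RefSeq (GRCm38.p6, names and order alone, 26690 of 41174 probes named). DEM was compared with DMSO by limma 3.58.1 in R 4.3.3 (lmFit, eBayes, Benjamini-Hochberg, threshold 0.05), a fit tested on simulated data. Printed signals are rescaled to a common 75th percentile.

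Genes named are called members, the 10 largest changes each way, members on role lists, and members at the edge of the filter. Genes outside this rule (Zfp644, Zfp773, Zfp772, Zfp108, Zfp93, Zfp672, Zfp329, Zfp871, Zfp114, Zfp316 and those of other lists) and the promoter motifs were chosen after their values were seen. Members and lists were chosen with earlier results of these data known. A planned split by protein features was not run. Alternatives covered background correction, scaling, filters, probe choice, moderation, replicate block and leaving out each array. The number of arrays limits the precision.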

Additional observations from a re-analysis of the deposited data

How the results depend on the processing

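With 2 arrays in each group, an adjusted p near the threshold moves with any choice, and dim members have only a small margin over background. Of 752 combinations of the 47 named members with 16 alternatives, 675 kept direction and side of the threshold, 40 gained a call, 5 lost one (all Zfp418) and 32 changed sign. The causes were not tested. The series' value table holds the same signals, so this alternative could only repeat the main values and adds to those that kept direction. A block for slide or scan was not run, since there was 1 of each.

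Members called higher and lower (main values 1 and 0), with all genes (main values 111 and 79) after them, numbered 4 and 7 among 435 and 365 under normexp, 4 and 2 among 404 and 163 under median scaling, and 3 and 4 among 200 and 357 under spike-in scaling. They numbered 3 and 7 among 230 and 196 with the filter on all 4 arrays, 4 and 6 among 415 and 311 with an eBayes trend, 5 and 9 among 492 and 390 with trend and robust moderation, and 0 and 0 among 0 and 0 with no filter on dim probes, where 12 members were higher and 30 lower in limma with an unadjusted p under 0.05. Under quantile normalization all genes called were 61 higher and 32 lower. With an unadjusted p below 0.05 there were 33 members higher and 12 lower under median scaling, and 4 and 16 under spike-in scaling. The percent of members with a negative change was 55.8 under normexp, 33.5 under median scaling and 63.1 under spike-in scaling, and the median was 0.13 and −0.080 under these 2 scalings.

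Leaving out 1 array gave 0 to 0 members called higher, 0 to 1 called lower, 8 to 14 with an unadjusted p under 0.05 that were higher and 20 to 28 that were lower, 0 to 69 and 0 to 52 of all genes called higher and lower, and 49.8% to 55.8% of members negative. Members that changed sign without 1 array ran from −0.016 to 0.068 (Zfp106), −0.099 to 0.098 (Zfp207), −0.43 to 0.032 (Zfp251), −0.095 to 0.018 (Zfp263), −0.20 to 0.000423 (Zfp281), −0.16 to 0.099 (Zfp395), −0.047 to 0.028 (Zfp622), −0.19 to 0.46 (Zfp638), −0.28 to 0.068 (Zfp708) and −0.012 to 0.26 (Zfp91).

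Sign changes under other settings were 0.077 (Zfp281) and −0.074 (Zfp598) with normexp, and −0.0081 (Zfp106), 0.018 (Zfp395) and 0.064 (Zfp979) with quantile normalization. Median scaling gave 0.14 (Zfp207), 0.11 (Zfp263), 0.044 (Zfp281), 0.076 (Zfp346), 0.12 (Zfp395), 0.11 (Zfp57), 0.14 (Zfp622), 0.038 (Zfp708) and 0.074 (Zfp979). Spike-in scaling gave −0.037 (Zfp106) and −0.016 (Zfp598), and the mean over a gene's probes −0.080 (Zfp106), 0.085 (Zfp207) and −0.024 (Zfp91).

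Same-numbered arrays had deviations that correlated at 0.138 over 15537 genes, from only 2 pairs, so the number is not taken as a pairing. With the replicate block 1 member was called higher and 0 lower, among 74 and 69 of all genes, and 30 members higher and 53 members lower had an unadjusted p below 0.05.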
